A study of Mus musculus with 16 samples.

Results

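The genes described here are 10 genes of phosphatidylcholine and phosphatidylethanolamine metabolism, of which 9 were measured among the 19237 genes of the array with a probe set of their own. They were listed by role, as enzymes of the CDP-choline route (Chka, Pcyt1a, Chpt1, Cept1), the methylation route (Pemt), the CDP-ethanolamine route (Pcyt2, Etnk1), phosphatidylserine decarboxylation (Pisd), choline oxidation (Chdh) and a phospholipase-like secreted protein (Pla2g12b). Each of the 9 had 1 single-gene probe set. Cept1 was read only by a probe set that is also annotated to Dram2, and it was left out. The livers were of the genotypes LRH-1 hep-/- (8 mice) and LRH-1 hep +/+ (8 mice), with 1 Affymetrix whole-transcript array per liver. The 16 mice, aged 17 to 19 weeks, ate ad libitum until they were killed at 7 am. LRH-1 is the nuclear receptor encoded by Nr5a2, and its deletion in the hep-/- livers is the only stated difference between the groups. The sources used here do not give the driver of the deletion, the exons removed or the sex of the mice.

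Phosphatidylcholine is the main phospholipid of liver membranes, bile and the surface of lipoproteins. Hepatocytes make it by 2 routes. In the CDP-choline route choline is phosphorylated, activated to CDP-choline and joined to diacylglycerol, and in the methylation route phosphatidylethanolamine receives methyl groups from S-adenosylmethionine. The CDP-ethanolamine route and the decarboxylation of phosphatidylserine supply the phosphatidylethanolamine. Phospholipids, phosphatidylcholines among them, bind in the ligand pocket of LRH-1, which is why these enzymes are of interest beside the receptor.

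Values are the log2 of the deposited probe-set intensities, and changes are hep-/- minus hep +/+ on that scale. Intensities of different probe sets cannot be set against each other as amounts. In whole liver RNA, fewer cells of a type and less RNA per cell cannot be told apart. A gene was called where its limma p, adjusted by Benjamini-Hochberg over all 19237 genes, was under 0.05. Nr5a2 read 7.25, 7.77 and 8.25 (lowest, median and highest) in hep-/- livers, against 8.45, 8.70 and 8.78 in hep +/+ livers, without overlap (exact permutation p = 0.000155, 2-sided, the smallest that 12870 assignments allow). Its signal in hep-/- livers was 54.2% of that in hep +/+ livers. The 8 measured hepatocyte markers of the 10 listed were bright in all livers and none was called, with a list mean of 12.49 to 12.58 in hep-/- livers and 12.52 to 12.65 in hep +/+ livers. Their changes were all below 0, from -0.14 (Cps1) to -0.002 (Alb). Among stellate cell markers 4 of 8 measured genes were higher (Dcn, Pdgfrb, Reln and Col3a1) and 1 was lower (Lrat), with a list mean of 7.23 to 7.90 in hep-/- livers and 7.09 to 7.70 in hep +/+ livers, and their part in the results below was not tested. No Kupffer cell, endothelial, lymphocyte or pancreatic marker was called, and 1 of 5 cholangiocyte markers (Epcam) was higher. Beside these marker counts, 5.49% of all genes were called higher and 3.2% lower.

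Some arrays stood apart from the rest. The median absolute distance of a gene from the median of the other arrays of the genotype was 0.188 for hep-/- liver 8, 0.177 for hep-/- liver 4 and 0.204 for hep +/+ liver 1, against 0.0856 to 0.127 for the other 13. Nr5a2 was highest among hep-/- livers on livers 8 (8.25) and 4 (8.15), and lowest among hep +/+ livers on liver 1 (8.45). Without these 3 arrays the Nr5a2 change was -1.06 ± 0.11 (SE), against -0.88 ± 0.12 (SE) with all arrays. Adipocyte transcripts were present on hep-/- liver 1, hep +/+ liver 5 and hep +/+ liver 8, where Adipoq read 6.30, 6.21 and 5.04, against 3.52 or less on the other arrays.

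Chka and Pcyt1a were lower and Chdh was higher in hep-/- livers. Of the 9 measured genes, 3 were called (2 lower and 1 higher), where 8.7% of all genes were called, 3.2% lower and 5.49% higher. The median change of the 9 genes was -0.001 and that of all genes 0.002. Both genes called lower encode early steps of the CDP-choline route, and the gene called higher encodes the first step of choline oxidation. Without hep-/- liver 8, which carried values unlike the other 7 for Chpt1 and Pla2g12b, 5 of the 9 genes were called, Chpt1 higher and Pemt lower in addition, where 9.47% of all genes were called. Without the 3 arrays that stood farthest from their genotype 6 of 9 were called, Pcyt2 being lower as well at an adjusted p of 0.05 as rounded, where 9.3% of all genes were called. The arrays removed hold the hep-/- values that ran against the added calls. These were Chpt1 (9.42) and Pemt (11.16) on liver 8 and Pcyt2 (10.32) on liver 4. The higher counts are thus no separate support for these changes.

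**Figure D1:**
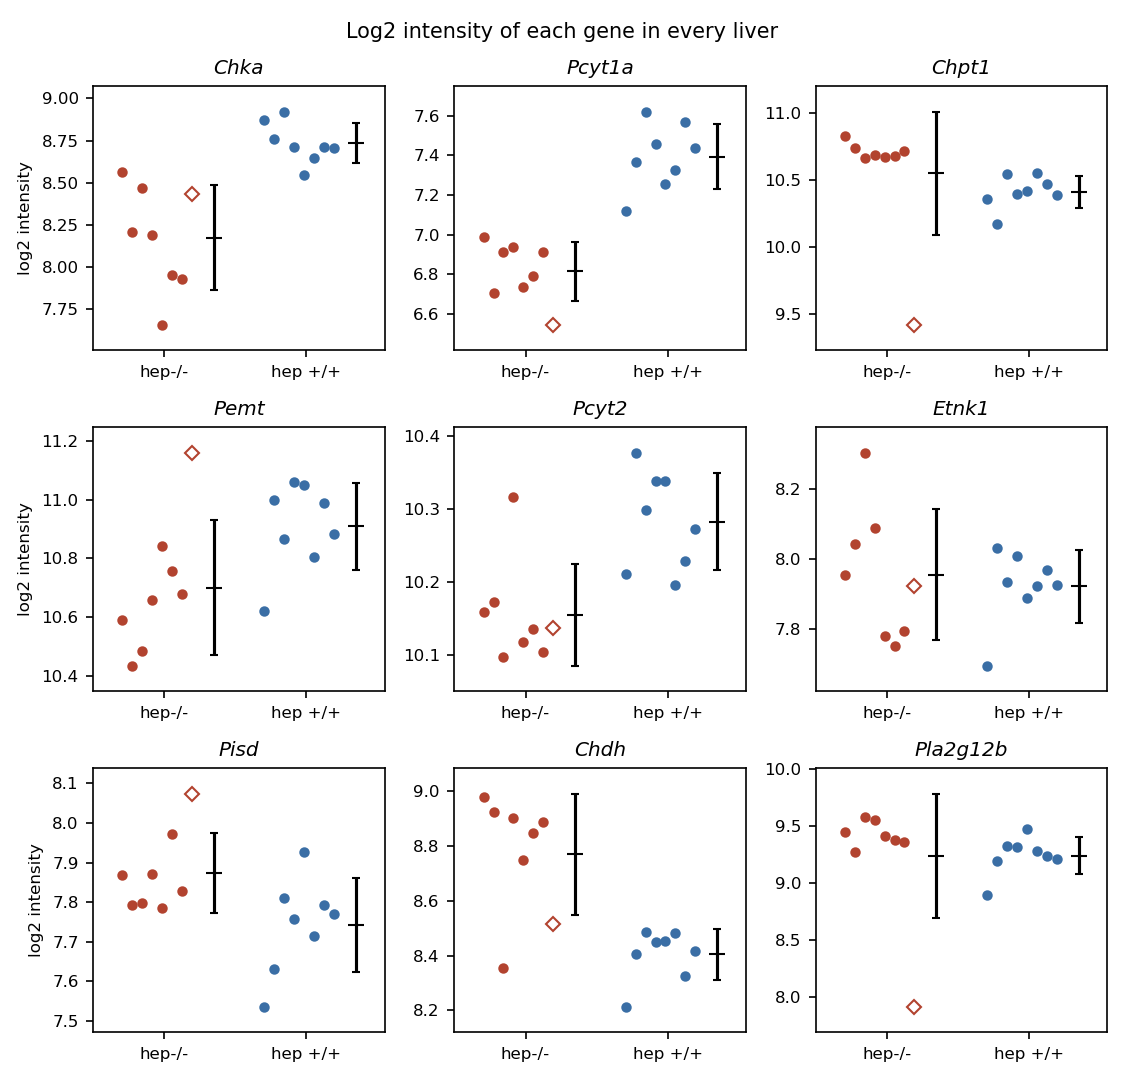
Log2 intensity (vertical axis) of the 9 measured genes in each of 8 hep-/- livers (red, left) and 8 hep +/+ livers (blue, right), with mean and SD as black bars; the open diamond is hep-/- liver 8. Pcyt1a is lower in every hep-/- liver than in every hep +/+ liver, and in Chpt1 and Pla2g12b hep-/- liver 8, at 9.42 and 7.91, lies far below the other 15 livers.

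The sequences before the start sites of the called genes were examined because Chka and Pcyt1a fell together while Chdh rose. RefSeq windows (build GRCm38.p6) were found for 9 of the 10 genes (all but Pcyt2), 17 windows in all since several genes have more than 1 start site, and the 250 bases before each start were searched on both strands. Of 8 motifs searched, CAAGGNCA, the site that LRH-1 binds as a monomer, was in 1 of these 17 windows (5.88%), before an internal start site of Chdh, and in 5.53% of all 32851 windows of the same length, so the share among these genes was near that of all windows. TCACNCCAC, a sterol regulatory element bound by SREBP proteins, was in 2 overlapping windows of Pcyt1a and in 1.05% of all windows. Both Pcyt1a windows hold the same single site. Counts of windows can thus count a site more than once. The GC box GGGCGG was in 8 of the 17 windows (Cept1, Chdh, Chka, Chpt1, Etnk1 and Pcyt1a) and in 32.7% of all, and CCAAT was in 4 of the 17 (Chka, Chpt1, Pemt and Pisd) and in 33.8% of all. AAGGTCA, which overlaps with CAAGGNCA where its variable base is T, was in none of the 17 and in 4.08% of all windows, and CACGTG was in none of the 17 and in 6.02% of all. The spaced repeats DR1 and DR5 were in none of the 17 windows. The Pcyt1a window is chr16:32430671-32430920, the Chka window chr19:3851523-3851772 and the Chdh window chr14:30022383-30022632, all on the plus strand and ending at the base before the start site. In the same build Chka spans chr19:3851585-3894369, Pcyt1a chr16:32430921-32475065 and Chdh chr14:30008901-30040468, so that the Chdh window lies within the gene. The Chka window precedes a start site that differs from the first base of the annotated span. Capitals mark TCACNCCAC in Pcyt1a, GGGCGG (on either strand) and CCAAT in Chka, and CAAGGNCA in Chdh.
Pcyt1a: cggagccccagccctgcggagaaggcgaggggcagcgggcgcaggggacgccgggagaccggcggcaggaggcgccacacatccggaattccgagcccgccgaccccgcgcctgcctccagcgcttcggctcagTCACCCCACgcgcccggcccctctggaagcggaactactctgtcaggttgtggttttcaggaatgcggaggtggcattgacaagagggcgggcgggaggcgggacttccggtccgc
Chka: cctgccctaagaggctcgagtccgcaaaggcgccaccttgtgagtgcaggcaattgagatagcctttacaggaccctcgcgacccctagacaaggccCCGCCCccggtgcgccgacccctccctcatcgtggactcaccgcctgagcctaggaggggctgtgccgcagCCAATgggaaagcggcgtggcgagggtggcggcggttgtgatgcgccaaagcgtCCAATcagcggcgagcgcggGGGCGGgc
Chdh: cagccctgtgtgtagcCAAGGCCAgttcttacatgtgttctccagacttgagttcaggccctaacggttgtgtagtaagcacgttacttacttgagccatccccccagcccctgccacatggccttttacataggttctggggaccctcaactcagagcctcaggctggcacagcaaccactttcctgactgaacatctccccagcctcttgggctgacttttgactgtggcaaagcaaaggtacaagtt

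For comparison with the Chdh match, the windows of Cyp8b1 and Nr0b2, known LRH-1 targets, each held a match, CAAGGGCA and CAAGGCCA. A match is a string of letters and does not show binding, and sites outside the windows were not searched.

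Chka encodes choline kinase alpha, which phosphorylates choline in the first step of the CDP-choline route. It read 7.66, 8.20 and 8.56 (lowest, median and highest) in hep-/- livers, against 8.54, 8.71 and 8.92 in hep +/+ livers. The groups met at a single point: hep-/- liver 1, at 8.56, lay above hep +/+ liver 5, at 8.54, and both are arrays with adipocyte transcripts. The change was -0.56 ± 0.11 (SE, limma adjusted p = 0.00147), or 67.9% of the hep +/+ signal. Without the 3 arrays with adipocyte transcripts it was -0.65 ± 0.12 (SE, limma adjusted p = 0.00161). The hep-/- livers were more spread (SD 0.31, n = 8) than the hep +/+ livers (SD 0.12, n = 8), with liver 5 lowest at 7.66.

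Pcyt1a encodes the alpha form of CTP:phosphocholine cytidylyl transferase, the rate-limiting enzyme of the route. It read 6.54, 6.85 and 6.99 in hep-/- livers, against 7.12, 7.40 and 7.62 in hep +/+ livers. Every hep-/- liver was below every hep +/+ liver, with no overlap, as was so in either direction for 2.89% of all genes. The change was -0.58 ± 0.08 (SE, limma adjusted p = 3.52e-05), or 67.0% of the hep +/+ signal. The lowest values of the groups were on hep-/- liver 8 (6.54) and hep +/+ liver 1 (7.12), which both stood apart on their arrays as a whole. Without the 3 arrays that stood farthest from their genotype the change was -0.59 ± 0.07 (SE, limma adjusted p = 2.24e-05).

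Chpt1 encodes cholinephosphotransferase 1, which joins CDP-choline to diacylglycerol. Over all livers it did not pass (0.14 ± 0.15 SE, limma adjusted p = 0.773, 95% interval -0.17 to 0.45), with 9.42, 10.68 and 10.83 in hep-/- livers, against 10.17, 10.41 and 10.55 in hep +/+ livers. Hep-/- liver 8, at 9.42, was the lowest of all 16, and the other 7 hep-/- livers, at 10.66 or more, were all above the highest hep +/+ liver. Without that liver Chpt1 was higher by 0.30 ± 0.06 (SE, limma adjusted p = 0.0021), or 1.23-fold. The genotypes then did not overlap, which without that liver held for 3.76% of all genes. This fit leaves out the only hep-/- value that ran against a rise, so it is no separate support for a rise. With any other single array left out Chpt1 did not pass (limma adjusted p = 0.764 to 0.896). On hep-/- liver 8 the hepatocyte marker mean was 12.57, within the range of the other livers. The means of the Kupffer cell list (6.77) and of the endothelial list (7.46) were the lowest of all 16 arrays. Those of the cholangiocyte (5.36), lymphocyte (4.79) and pancreatic acinar (5.48) lists were the highest. The median intensity of this array, 42.53, was below only that of hep +/+ liver 1, 43.47. Hep +/+ liver 1 came next for the lymphocyte (4.778) and pancreatic acinar (5.465) lists. For the cholangiocyte list hep-/- liver 5 (5.315, array median 41.76) came next. Whether the list means reflect the cell make-up of liver 8 or the brightness of its array was not tested. The part of either in the low Chpt1 reading was not tested.

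**Figure D2:**
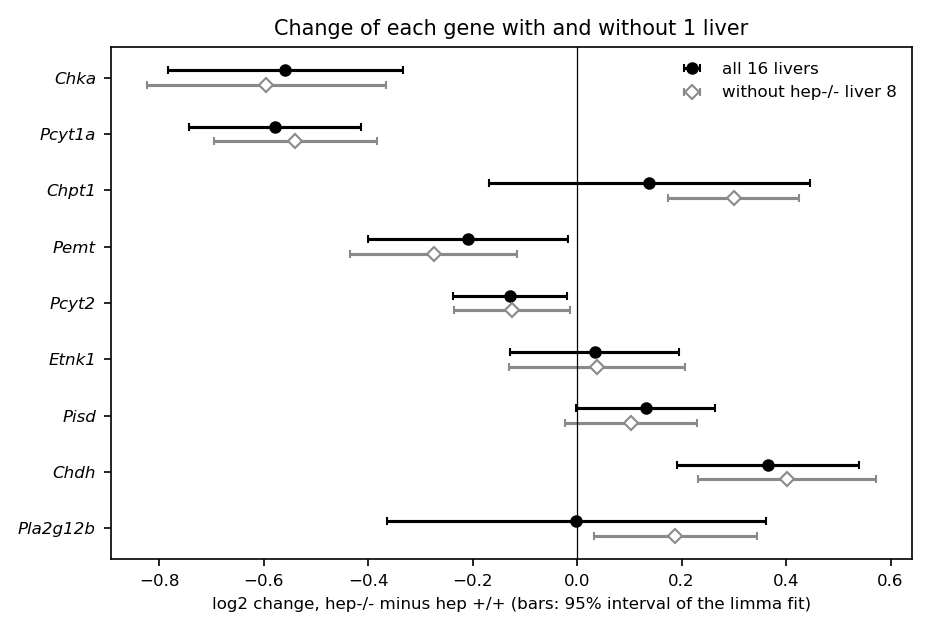
Log2 change, hep-/- minus hep +/+ (horizontal axis), of each measured gene with its 95% interval from limma, over all 16 livers (filled circles) and without hep-/- liver 8 (open diamonds). The change of Chpt1 moves to 0.30 and that of Pla2g12b to 0.19 without that liver, against 0.14 and -0.001 with it, while Chka, Pcyt1a and Chdh stay near -0.56, -0.58 and 0.37.

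Pemt encodes phosphatidylethanolamine N-methyltransferase, the enzyme of the methylation route, which in the body is largely a liver enzyme. It read 10.43, 10.67 and 11.16 in hep-/- livers, against 10.62, 10.94 and 11.06 in hep +/+ livers. Its change of -0.21 ± 0.09 (SE, limma adjusted p = 0.223, 95% interval -0.40 to -0.02) did not pass. Hep-/- liver 8 was the highest of all 16 livers and hep +/+ liver 1, at 10.62, the lowest of its group. Without hep-/- liver 8 Pemt was lower by the test, at -0.27 ± 0.08 (SE, limma adjusted p = 0.0254), and without the 3 arrays farthest from their genotype at -0.32 ± 0.07 (SE, limma adjusted p = 0.00808). Both removals take out the highest Pemt value, so these fits are no separate support for a fall. Without the 3 arrays with adipocyte transcripts it did not pass (-0.17 ± 0.11 SE, limma adjusted p = 0.548).

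The genes of the ethanolamine branch moved little. Etnk1 encodes ethanolamine kinase 1, which starts the CDP-ethanolamine route, and read 7.75, 7.94 and 8.31 in hep-/- livers, against 7.69, 7.93 and 8.03 in hep +/+ livers. The groups overlapped over most of their range (change 0.03 ± 0.08 SE, limma adjusted p = 0.933, 95% interval -0.13 to 0.19). Pcyt2 encodes CTP:phosphoethanolamine cytidylyl transferase, the counterpart of Pcyt1a in this branch. It read 10.10, 10.14 and 10.32 in hep-/- livers, against 10.20, 10.29 and 10.38 in hep +/+ livers. All hep-/- livers but liver 4, at 10.32, lay below every hep +/+ liver, and with all livers the change of -0.13 ± 0.05 (SE, limma adjusted p = 0.175, 95% interval -0.24 to -0.02) did not pass. Pisd encodes phosphatidylserine decarboxylase, the mitochondrial source of phosphatidylethanolamine. It read 7.79, 7.85 and 8.07 in hep-/- livers, against 7.54, 7.76 and 7.93 in hep +/+ livers, and its change of 0.13 ± 0.06 (SE, limma adjusted p = 0.291, 95% interval -0.002 to 0.26) did not pass. The mouse genome holds near copies of Pisd, and 2 other probe sets of this array are annotated to them, so its signal may hold transcripts of those copies.

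Chka and Etnk1, and Pcyt1a and Pcyt2, encode the same chemical step in the choline and ethanolamine branches, and within each pair the genes changed unequally. This was tested on the difference of 2 log2 values from the same array, which removes any factor that scales a whole array, with an exact permutation test over 12870 assignments and Benjamini-Hochberg adjustment over the 3 pairs tested. The choline minus ethanolamine kinase difference, Chka minus Etnk1, was 0.22 ± 0.23 in hep-/- livers, against 0.81 ± 0.18 in hep +/+ livers (SD, n = 8 each). It was lower by 0.59 ± 0.10 (SE) with no overlap between the groups (exact permutation p = 0.000155, adjusted p = 0.000233). The cytidylyl transferase difference, Pcyt1a minus Pcyt2, was -3.34 ± 0.15 in hep-/- livers, against -2.89 ± 0.17 in hep +/+ livers (SD, n = 8 each), and changed by -0.45 ± 0.08 (SE), again with no overlap (exact permutation p = 0.000155, adjusted p = 0.000233). The difference between the CDP-choline and the methylation routes, Pcyt1a minus Pemt, was -3.88 ± 0.34 in hep-/- livers, against -3.52 ± 0.16 in hep +/+ livers (SD, n = 8 each). Its change was -0.37 ± 0.13 (SE, exact permutation p = 0.00591, adjusted p = 0.00591), the groups overlapped, and hep-/- liver 8 was lowest at -4.62. Without that liver the change was -0.27 (exact permutation, adjusted p = 0.011). The sizes within a group carry the unequal brightness of the probe sets, so that their shift between the genotypes, and not their value, is the result. Chka and Pcyt1a were also called in the fit above, so these pairs are not independent of those calls. The pairs compare single genes and not whole steps. The other choline kinase gene, Chkb, was called higher (0.27 ± 0.07 SE, limma adjusted p = 0.0235). Pcyt1b, for the beta form of the Pcyt1a enzyme, did not pass (0.05 ± 0.06 SE, limma adjusted p = 0.813). No pair with Chkb or Pcyt1b was tested.

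**Figure D3:**
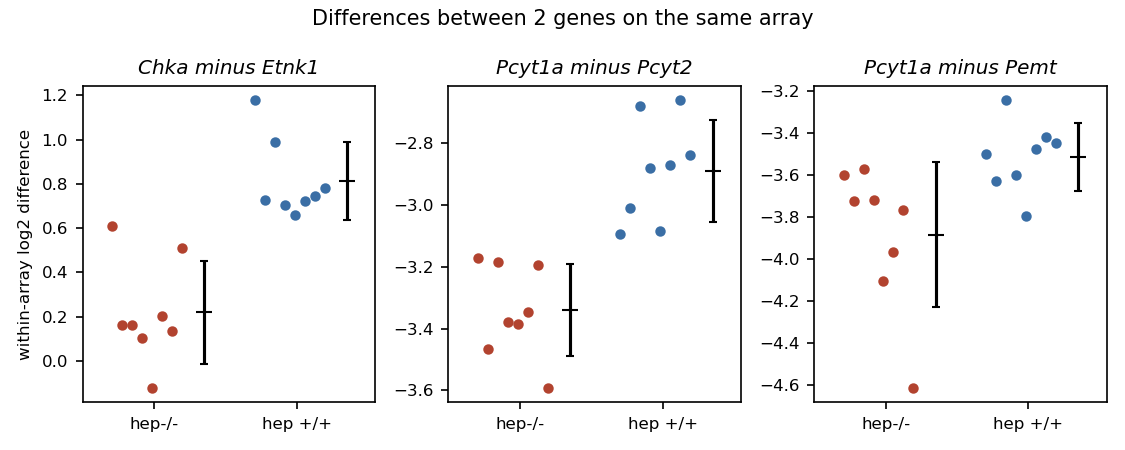
Difference between the log2 intensities of 2 genes on the same array (vertical axis) for 3 pairs, in 8 hep-/- livers (red, left) and 8 hep +/+ livers (blue, right), with mean and SD as black bars. The groups do not overlap for Chka minus Etnk1 and for Pcyt1a minus Pcyt2, and they overlap for Pcyt1a minus Pemt.

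Chdh encodes choline dehydrogenase, the mitochondrial enzyme that oxidises choline on the way to betaine and so withdraws it from phosphatidylcholine synthesis. It read 8.35, 8.87 and 8.98 in hep-/- livers, against 8.21, 8.43 and 8.49 in hep +/+ livers. In hep-/- livers 7 of 8 were above every hep +/+ liver, liver 3 at 8.35 being the exception. The change was 0.37 ± 0.08 (SE, limma adjusted p = 0.00621), or 1.29-fold, and without the 3 arrays with adipocyte transcripts 0.35 ± 0.10 (SE, limma adjusted p = 0.0419).

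Pla2g12b encodes a secreted protein of the phospholipase A2 family that lacks the enzyme activity and takes part in the loading of lipid onto very low density lipoproteins. It read 7.91, 9.40 and 9.58 in hep-/- livers, against 8.90, 9.26 and 9.47 in hep +/+ livers. The change over all livers was -0.001 ± 0.17 (SE, limma adjusted p = 0.999, 95% interval -0.36 to 0.36), and hep-/- liver 8 alone lay below the hep +/+ range. Without it the change was 0.19 ± 0.07 (SE, limma adjusted p = 0.147, 95% interval 0.03 to 0.34) and the groups overlapped.

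Residual Nr5a2 signal differed among hep-/- livers, between 7.25 and 8.25, so each gene was set against it within each genotype. None of the 18 relations passed after Benjamini-Hochberg adjustment by exact permutation (lowest adjusted p = 0.254 for Pearson's r and 0.221 for Spearman's rho). Before adjustment 1 had a p under 0.05 for r and 3 for rho. Pla2g12b in hep +/+ livers was under it by both measures (r = 0.758, exact p = 0.0141, and rho = 0.786, exact p = 0.0279), where r was 0.36 without livers 1 and 8, those farthest from the median of Nr5a2. Pisd in hep +/+ livers had rho = 0.786 (exact p = 0.0279) and r = 0.627 (exact p = 0.0934), with r = 0.631 without the same livers. Chpt1 in hep-/- livers had rho = -0.762 (exact p = 0.0368) and r = -0.589 (exact p = 0.0523), with r = -0.753 without livers 2 and 8. In hep-/- livers r with Nr5a2 was -0.15 for Chka (exact p = 0.72, adjusted p = 0.762) and -0.31 for Pcyt1a (exact p = 0.457, adjusted p = 0.59), and rho was -0.167 for both (exact p = 0.703, adjusted p = 0.904). The 8 livers of a genotype limit what such a relation can show.

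The genes whose values followed the called genes most closely from liver to liver were looked up, with each genotype's mean removed first, over the 16 arrays. For Pcyt1a these were Mtrf1l (r = 0.92), Zfp770 (r = 0.914) and Zfp639 (r = 0.897). For Chka they were Gtpbp2 (r = 0.862), Ccdc120 (r = 0.807) and Garem1 (r = 0.787). For Chdh they were Tmprss6 (r = 0.921), Ociad2 (r = 0.91) and Pdhb (r = 0.899). These are descriptions over the same 16 arrays, with the arrays that stood apart included, and the part of the arrays in them was not tested. Of the 9 genes, Gtpbp2 (0.36) and Ccdc120 (0.42) were called higher and Tmprss6 (-0.30) lower, each in the direction opposite to the gene it followed within genotypes, and the other 6 were not called.

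Around these enzymes, 79 genes of 10 lists of phospholipid metabolism were measured, of 89 listed. In limma 9 were higher, where 5.49% of all genes were, and 10 lower, where 3.2% of all genes were, with a median change of 0.01. The same shares of all genes stand beside the counts of each list below. Without hep-/- liver 8 the counts were 8 higher and 11 lower, where 9.47% of all genes were called in either direction. Without the 3 arrays with adipocyte transcripts they were 5 and 10, where the share of all genes called was 5.87%, or 1129 genes against 1673 with all arrays. Without the 3 arrays farthest from their genotype they were 8 and 13, where that share was 9.3%.

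Of 4 measured genes of other kinases, cytidylyl transferases and phosphotransferases 1 was higher and none lower. Chkb, which encodes the beta form of choline kinase, was higher by 0.27 ± 0.07 (SE, limma adjusted p = 0.0235), with a range of 5.80 to 6.29 in hep-/- livers, against 5.56 to 5.92 in hep +/+ livers. Its call was lost without the arrays with adipocyte transcripts (0.24 ± 0.09 SE, adjusted p = 0.138). Pcyt1b, the beta form of the Pcyt1a enzyme (0.05 ± 0.06), and Selenoi, the ethanolaminephosphotransferase (-0.05 ± 0.06), did not pass. Etnppl, which breaks down phosphoethanolamine, did not pass either (0.50 ± 0.18 SE, limma adjusted p = 0.103). Of the 2 phosphatidylserine synthases neither passed, with Ptdss1 at -0.11 ± 0.08 (SE).

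Of 7 measured genes that make or spend the methyl donor of the Pemt reaction, 3 fell and 1 rose. Gnmt, glycine N-methyltransferase, changed by -0.81 ± 0.10 (SE, limma adjusted p = 1.5e-05), with 10.63 to 11.55 in hep-/- livers, against 11.63 to 11.94 in hep +/+ livers. Mat1a, the liver form of methionine adenosyltransferase that makes S-adenosylmethionine, changed by -0.73 ± 0.11 (SE, limma adjusted p = 8.36e-05), with 10.98 to 11.98 in hep-/- livers, against 11.79 to 12.15 in hep +/+ livers. Gamt, which uses the donor to make creatine, changed by -0.69 ± 0.10 (SE, limma adjusted p = 0.000106). Nnmt, which methylates nicotinamide, was higher by 0.51 ± 0.16 (SE, limma adjusted p = 0.0463), a call lost without hep-/- liver 8 (0.43 ± 0.15 SE, adjusted p = 0.0852), without the arrays with adipocyte transcripts (0.55 ± 0.18 SE, adjusted p = 0.1) and without the 3 farthest arrays (0.43 ± 0.17 SE, adjusted p = 0.146). Gnmt did not overlap between the genotypes, as held for 2.89% of all genes, and the other 3 did.

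Among 11 measured genes of choline uptake, oxidation and betaine use, 1 was higher and 2 were lower. The choline transporter gene Slc44a1 changed by -0.55 ± 0.07 (SE, limma adjusted p = 2.15e-05), with 7.92 to 8.41 in hep-/- livers, against 8.48 to 8.87 in hep +/+ livers. Sarcosine dehydrogenase, Sardh, which acts late in the breakdown of choline, changed by -0.42 ± 0.08 (SE, limma adjusted p = 0.00106), and Flvcr2, a transporter reported to carry choline, by 1.00 ± 0.11 (SE, limma adjusted p = 4.15e-06). None of these 3, all called genes, overlapped between the genotypes, as held for 2.89% of all genes. The betaine methyltransferase Bhmt (0.02 ± 0.08) and dimethylglycine dehydrogenase Dmgdh (-0.03 ± 0.07), which follow Chdh in the pathway, did not pass. Bhmt2, listed beside Bhmt, did not pass either (-0.01 ± 0.08).

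**Figure D4:**
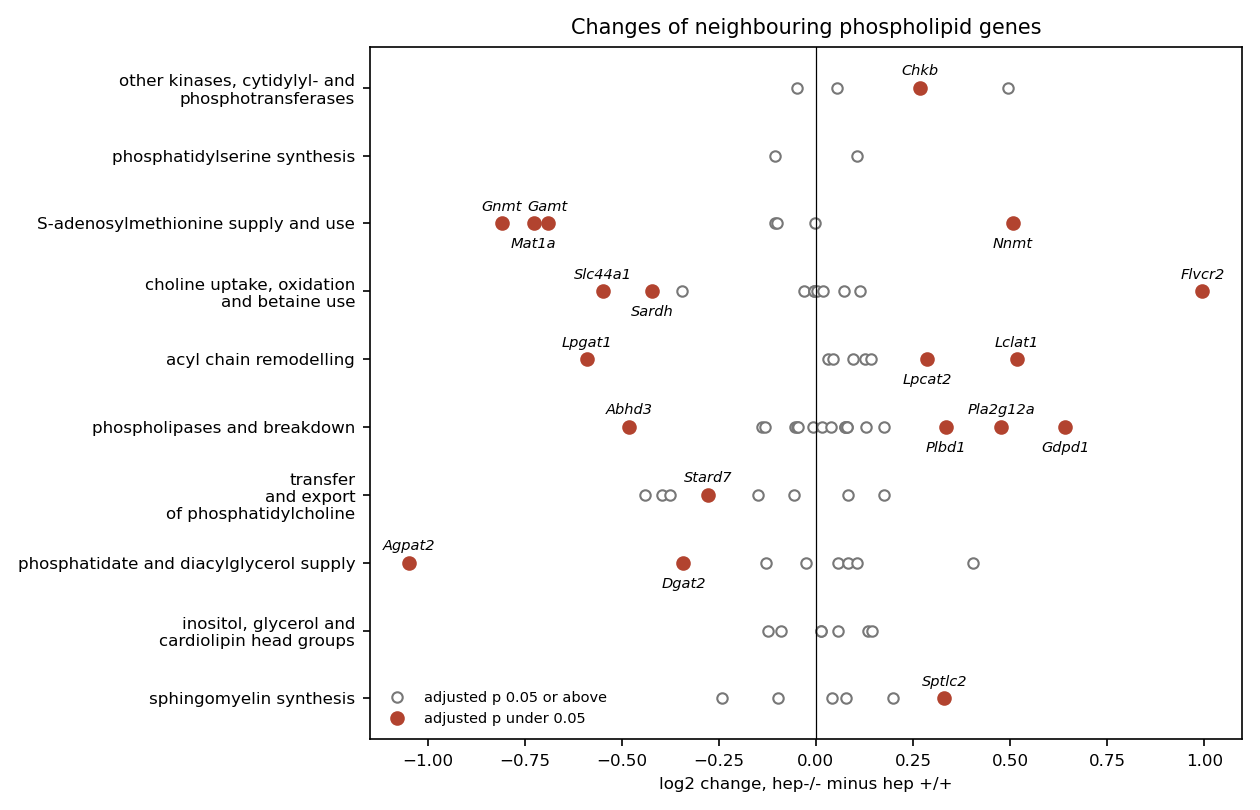
Log2 change, hep-/- minus hep +/+ (horizontal axis), of 79 genes in 10 lists of phospholipid metabolism, 1 point a gene, filled where the limma adjusted p was under 0.05 over all genes. Named points run from Agpat2 at -1.05 to Flvcr2 at 1.00, with 10 of them below 0 and 9 above.

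Enzymes that change the acyl chains of phospholipids moved in both directions, with 2 of 8 higher and 1 lower. Lclat1, a lysocardiolipin acyltransferase, was higher by 0.52 ± 0.08 (SE, limma adjusted p = 0.000142) and Lpgat1, a lysophospholipid acyltransferase, changed by -0.59 ± 0.09 (SE, limma adjusted p = 0.000205). Lpcat2 was higher by 0.29 ± 0.08 (SE, limma adjusted p = 0.0243), with a change of similar size that did not pass without the arrays with adipocyte transcripts (0.26 ± 0.09 SE, adjusted p = 0.11). Lpcat3, the main lysophosphatidylcholine acyltransferase of liver, did not pass (0.13 ± 0.06 SE, limma adjusted p = 0.248). Of 18 phospholipase and breakdown genes 3 were higher and 1 lower. Gdpd1, a lysophospholipase D, rose by 0.64 ± 0.10 (SE), the secreted phospholipase Pla2g12a by 0.48 ± 0.07 (SE) and Plbd1 by 0.33 ± 0.10 (SE), and Abhd3, which cleaves phosphatidylcholines with medium chains, changed by -0.48 ± 0.09 (SE). Plbd1 (adjusted p = 0.0431) had a change of similar size that did not pass without the arrays with adipocyte transcripts (0.32 ± 0.12 SE, adjusted p = 0.154). It was higher by 0.43 ± 0.06 (SE, adjusted p = 0.000114) without hep-/- liver 8 and by 0.43 ± 0.07 (SE, adjusted p = 0.000481) without the 3 farthest arrays.

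Of 8 genes of phosphatidylcholine transfer and export 1 was called, Stard7, which carries phosphatidylcholine to mitochondria, at -0.28 ± 0.07 (SE, limma adjusted p = 0.0113). The transfer protein gene Pctp was at -0.38 ± 0.12 (SE, adjusted p = 0.0505) over all livers and passed without the 3 farthest arrays (-0.40 ± 0.11 SE, adjusted p = 0.0225). Lcat, the plasma lecithin-cholesterol acyltransferase, was at -0.15 ± 0.07 (SE, adjusted p = 0.295) over all livers and passed without the same arrays (-0.22 ± 0.07 SE, adjusted p = 0.0477). Abcb4, the canalicular phosphatidylcholine floppase, did not pass over all livers (-0.40 ± 0.13 SE, adjusted p = 0.0771). It did not pass without hep-/- liver 8 (adjusted p = 0.126), the arrays with adipocyte transcripts (0.153) or the 3 farthest arrays (0.181). Tm6sf2, which acts in lipid loading of lipoproteins, was at -0.44 ± 0.15 (SE, adjusted p = 0.0853) over all livers and passed without hep-/- liver 8 (-0.51 ± 0.15 SE, adjusted p = 0.0345) and without the 3 farthest arrays (-0.63 ± 0.12 SE, adjusted p = 0.00191). Without the arrays with adipocyte transcripts Pctp (adjusted p = 0.202), Lcat (0.638) and Tm6sf2 (0.226) did not pass. Pctp (0.0906) and Lcat (0.0637) did not pass without hep-/- liver 8 either. Pctp, Lcat, Abcb4 and Tm6sf2 were picked for mention after their values were seen, and all had changes below 0. Of the other genes of the list not called, Osbpl8 (0.17 ± 0.09 SE) and Mttp (0.08 ± 0.08 SE) were above 0 and Stard10 (-0.06 ± 0.05 SE) below. In the list of phosphatidate and diacylglycerol supply 2 of 8 genes fell, namely Agpat2 (-1.05 ± 0.10 SE, limma adjusted p = 1.67e-07), which makes phosphatidate, and Dgat2 (-0.34 ± 0.07 SE, limma adjusted p = 0.00207), which draws diacylglycerol into triglyceride. Of 7 genes for the inositol, glycerol and cardiolipin head groups none passed, with Cds2, a CDP-diacylglycerol synthase, at -0.09 ± 0.06 (SE, limma adjusted p = 0.519). Of 6 sphingomyelin genes Sptlc2, a subunit of serine palmitoyltransferase, rose by 0.33 ± 0.08 (SE, limma adjusted p = 0.00658).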

How the data were processed

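RNA from 16 livers was labelled from 100 ng of total RNA and hybridised to 1 array each, per the labels' protocols. The authors deposited 1 intensity per probe set and array, on a linear scale. The submitters' processing notes name Affymetrix Expression Console. The sources used here do not give its summary and normalization settings, and a normalization between arrays would remove a shift common to the genes. Array medians were 38.9 to 43.5.

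The intensities were taken to log2 with no pseudocount, filter or further normalization. Of 35556 probe sets 21456 were annotated to 1 gene, 2376 to several and 11724 were not listed; a gene's probe set with the highest mean was kept, giving 19237 genes. Genotypes were compared in limma 3.58.1 (R 4.3.3, lmFit and eBayes, 2-sided) with Benjamini-Hochberg adjustment over all genes, and the steps were tested on simulated data. The Nr5a2 difference, the pair differences and the relations to Nr5a2 were tested by exact permutation over samples (numpy 2.4.6). The number of arrays limits the precision. The labels call the livers biological replicates. The main fit did not pair livers by replicate number. Correlations of same-numbered deviations were -0.262 to 0.235. Differently numbered arrays were not compared, so these values cannot decide whether the livers were paired.

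The members and lists were chosen with earlier results of these data known. The text names every member, Nr5a2, up to 4 called genes in each direction per list (or the brightest where none was called) and the 3 genes that followed each called member (predicted loci, clones and small RNAs left out). Pcyt1b, Selenoi, Etnppl, Bhmt, Bhmt2, Dmgdh, Lpcat3, Pctp, Lcat, Abcb4, Tm6sf2, Osbpl8, Mttp and Stard10 were named after their values were seen. A planned Chpt1 against Cept1 test was not possible without a Cept1 probe set. Sequences are from RefSeq. The marker lists were for hepatocytes, adipocytes, cholangiocytes, Kupffer, stellate, endothelial, lymphoid, erythroid and pancreatic acinar cells. In the adipocyte list 1 of 8 measured genes was higher (Cidea) and 1 lower (Car3), and in the erythroid list 1 of 2 was lower (Alas2). Of all genes 5.49% were called higher and 3.2% lower.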

Additional observations from a re-analysis of the deposited data

Results flagged for a closer look

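Of 20 groups of 8 livers (the 9 genes and Nr5a2 in each genotype), 4 held a liver set apart by a gap larger than Dixon's 95% limit, where chance gives about 1 in 20. Chpt1 in hep-/- liver 8 was 9.42, with the other hep-/- livers at 10.66 or more. Pla2g12b in the same liver was 7.91, with the others at 9.27 or more. Pcyt2 in hep-/- liver 4 was 10.32, with the others at 10.17 or less. Etnk1 in hep +/+ liver 1 was 7.69, with the others at 7.89 or more. All 4 values lie on the 3 arrays that stood farthest from their genotype over all genes. These are also the hep-/- livers with the highest Nr5a2 and the hep +/+ liver with the lowest. What sets these arrays apart was not tested.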

How the results depend on the processing

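Chka, Pcyt1a and Chdh kept their direction and their call under all 27 alternatives: the replicate block, quantile normalization, median centring, filters at the 25th and 50th percentiles, the mean of probe sets, an intensity trend with robust variance, array weights, a pseudocount of 16, each array left out, and the 2 sets of 3 arrays removed after the data were seen. Their changes ranged over -0.65 to -0.48, -0.62 to -0.52 and 0.34 to 0.43. With the replicate block 1524 genes were called, against 1673 without it, and the same number of members, 3. The number of members called was 3 to 5 when 1 array was left out, the highest without hep-/- liver 8, and 6 without the 3 arrays farthest from their genotype. The removals with the higher counts take out values that ran against the added calls. Genes called numbered 1424 to 1821 when 1 array was left out. Pemt also passed with array weights (-0.26, adjusted p = 0.0225) and Pcyt2 with the pseudocount (-0.13, adjusted p = 0.0386). Changes near 0 that were not called turned sign: Etnk1 with array weights (-0.0269) and without the 3 farthest arrays (-0.0163), and Pla2g12b after quantile normalization (0.00382), with array weights (0.0800), with the pseudocount (0.00132), without the arrays with adipocyte transcripts (0.00190) and without the 3 farthest arrays (0.12). With 1 array left out Etnk1 ranged over -0.0169 to 0.0624, below 0 without hep-/- liver 3, and Pla2g12b over -0.0507 to 0.19, above 0 without hep-/- liver 8 or without hep +/+ liver 3, 4, 5 or 6. The cause was not tested. The 3 pair differences kept direction and call in 18 of 18 alternatives each; median centring cannot move them. The share of higher calls was 1057 of 1673, against 857 of 1422 after median centring.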
